A study of Mus musculus with 8 samples.

Results

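The lysosome genes other than the cathepsins were examined in tumour-associated macrophages (TAMs), the macrophages that populate a tumour. They are the genes whose pathway annotation in the deposited tables, taken from the Kyoto Encyclopedia of Genes and Genomes (KEGG), names Lysosome, leaving out symbols that begin with Cts and leaving out Cd68, Cd63 and Slc11a1. Of the 122 genes so annotated, 16 cathepsin symbols and the 3 other symbols were removed, and 103 members were left among 21051 genes listed. A value was present for 101 of them, 98 held enough counts to be tested, and 81 of those 98 did not pass the test. RNA was sequenced from CD45+F4/80+ cells sorted from subcutaneous tumours of B16, a transplantable mouse melanoma line, on day 14 after injection. The 4 TAM-WT libraries came from WT mice and the 4 TAM-KO libraries from Colec11-/- mice, all of strain C57BL/6, and no other treatment is labelled. Colec11 encodes collectin-11, a soluble lectin of innate immunity, and the comparison asks how TAMs differ when the host lacks it. By the study's methods the WT mice were littermates, the mice were young adult males unless stated otherwise, and the Colec11-/- mice were homozygous, so that every host cell type and not macrophages alone carried the deletion, while both groups received the same tumour line.

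Lysosomes are acidic organelles in which macrophages break down what they engulf. A vacuolar-type proton pump, whose V0 sector sits in the membrane and whose V1 sector splits ATP in the cytosol, keeps the lumen acidic. Hydrolases for sugars, sulfates, lipids, DNA and peptides work at that low pH, most of them delivered from the Golgi by the mannose 6-phosphate tag or by adaptor complexes, and membrane proteins and transporters enclose the lumen and export the products. Many of these genes share a CACGTG-type element near their start, the CLEAR element, which is bound by the transcription factors Tfeb, Tfe3 and Mitf.

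Promoter sequence was looked up because the genes of this pathway are known to share that element. RefSeq windows on GRCm38.p6, from 250 bases before to 50 bases after each gene's start, matched 81 of the 103 members. CACGTG, which reads the same on both strands, was in 20 of the 81 (24.7%), in 8.09% of all 27025 genes with a window and in 11.9% of the tested genes with a window. TCACGTGA, which contains CACGTG and also reads the same on both strands, was in 8 members (9.88%), in 1.12% of all genes with a window and in 2.19% of the tested genes with one. CACGTG was in 2 of the 10 members with a window that passed the test described below and in 18 of the 66 tested members with a window that did not pass. The rest of the 17 members that passed had no window and could not be looked up, among them Atp6v0d2, Atp6v0a2, Asah1, Ap3s1 and Atp6v1h. Both members that passed and had a match, Lamp1 and Cd164, are shown, with the members that did not pass and held 2 copies of TCACGTGA before the start, Gla and Igf2r. Each line gives 60 bases of the gene's strand from 5′ to 3′, with the matched letters in capitals.
Lamp1 (chr8:13159096-13159155, plus strand, bases -65 to -6 from the start, 4 copies of CACGTG): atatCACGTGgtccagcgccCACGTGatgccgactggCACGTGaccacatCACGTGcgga
Cd164 (chr10:41519386-41519445, plus strand, bases -114 to -55, 1 copy of TCACGTGA): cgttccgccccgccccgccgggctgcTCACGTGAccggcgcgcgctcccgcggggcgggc
Gla (chrX:134601184-134601243, minus strand, bases -238 to -179, 2 copies of TCACGTGA): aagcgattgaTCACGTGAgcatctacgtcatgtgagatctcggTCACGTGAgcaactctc
Igf2r (chr17:12769707-12769766, minus strand, bases -60 to -1, 2 copies of TCACGTGA): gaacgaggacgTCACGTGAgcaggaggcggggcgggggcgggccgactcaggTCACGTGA
These matches are letters in a window and were not tested as binding sites.

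The 7 libraries with whole tables held between 16225359 and 17280266 reads on genes. The table of TAM-KO replicate 1 lacks an unbroken run of 5311 genes, so 61 of the 101 members with a value have 4 TAM-WT and 3 TAM-KO libraries and 40 have all 8. Colec11 had between 0 and 4 counts in every library of both groups, too few to check the genotype. Adgre1, the gene of F4/80, ranged from 182 to 239 FPKM and Csf1r, the receptor of macrophage colony-stimulating factor, from 209 to 284 FPKM over the 7 whole libraries. Other cell types left RNA as well. The summed FPKM of 9 melanoma cell markers was 2655, 4427, 2016 and 1964 in TAM-WT and 5120, 4789 and 3834 in TAM-KO replicates 2 to 4, and all 9 estimates were higher in TAM-KO. Of the 9, 1 was called, Sox10 (log2 0.76, SE 0.17, adjusted p = 0.0295), beside 7 in DESeq2. Higher calls made up 4.58% of all genes tested in edgeR, and DESeq2 called 18.2% of all genes in either direction. The 8 NK cell markers summed to 0.87 to 18.6 FPKM in TAM-WT and 20.8 to 68.3 in TAM-KO replicates 2 to 4, with Ncr1 at or near 0, and the 8 T cell markers with a value to 2.51 to 18.5 and 21.2 to 54.9. Of these markers Nkg7, Eomes and Cd2 were called higher. The 5 NK cell estimates were all higher. Ncr1, Klrb1c and Gzma were not tested, with Klrb1c at most 0.25 and Gzma at most 0.95 FPKM. The mean of Klrb1c was 0.155 FPKM in TAM-WT and 0.087 in TAM-KO replicates 2 to 4. Of the 8 T cell estimates, 7 were higher and that of Cd4 was lower (log2 -0.29, SE 0.27, adjusted p = 0.507). The 7 neutrophil markers with a value summed to 19.9 to 32.3 FPKM in TAM-WT and 48.4 to 53.9 in TAM-KO replicates 2 to 4, with Ly6g, Mpo and Camp at or near 0. TAM-KO replicate 1 lay above every other library in S100a8, at 73.5 FPKM, beside 9.13 to 15.8 in the other TAM-KO libraries and 2.57 to 5.54 in TAM-WT, and in S100a9, at 80.03 FPKM, beside 5.09 to 13.3 and 3.5 to 4.37. S100a8 was called higher (log2 2.68, SE 0.73, adjusted p = 0.0481). The sums of B cell, dendritic cell, fibroblast and endothelial cell markers overlapped between the groups and were at most 17.8 FPKM in any whole library. Among them Xcr1, a dendritic cell marker of at most 0.92 FPKM, was called higher (log2 1.78, SE 0.46, adjusted p = 0.0435). Of the 7 dendritic cell estimates, 5 were higher and 2 lower. The summed FPKM of the 10 macrophage markers overlapped between the groups, at 6027 to 7420 in TAM-WT and 6309 to 6989 in TAM-KO replicates 2 to 4. Within the list, Mrc1, the mannose receptor, was at 453, 431, 464 and 459.6 FPKM in TAM-WT and fell to 162, 212 and 289 in TAM-KO replicates 2 to 4 (log2 -1.13, SE 0.20, adjusted p = 0.0219). Cd68 (log2 -0.55, adjusted p = 0.0732) and Fcgr1, an Fc receptor (log2 0.49, adjusted p = 0.0963), lay in opposite directions and did not pass. The part of these cells in the differences below was not tested, and in bulk RNA fewer cells of a type cannot be told apart from less RNA per cell.

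Most of the lysosome genes that changed were lower in TAM-KO, by modest amounts. Of the 98 members tested with edgeR's quasi-likelihood test, 17 passed at an adjusted p of at most 0.05 (17.3%), beside 9.81% of all 12412 genes tested. Among them 15 were lower in TAM-KO, beside 5.24% of all genes, and 2 were higher, beside 4.58% of all genes. Named among the 15 that fell are Atp6v0d2, Atp6v0a1 and Atp6v1h of the proton pump, the hydrolases Asah1, Lipa and Dnase2a, the protease Tpp1, the membrane proteins Lamp1 and Cd164, the transporter Ctns, and the adaptor subunits Ap3s1, Ap3m1 and Ap4s1. The 2 that rose were Acp5, a phosphatase, and Atp6v0a2, a proton pump subunit. Of the 17, Atp6v0d2 was the 1 that changed at least 2-fold, beside 2.53% of all genes that passed with a change of that size.

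The smaller differences pointed the same way more often than not. The median log2 fold change of the 98 members, TAM-KO over TAM-WT, was -0.15, beside 0.00 over all genes tested, and 70 of the 98 estimates were negative (71.4%), beside 49.7% of all genes. On the CPM scale, read counts are divided by library sizes adjusted with edgeR's TMM scaling. On it the TAM-KO libraries lay wholly below the TAM-WT libraries for 27 members (27.6%), beside 10.1% of all genes. They lay wholly above them for 7 members (7.14%), beside 9.16% of all genes. These counts depend on that scaling, and some of the 27, Cd164 and Lamp2 among them, overlapped on the FPKM scale. The scaling sets where 0 lies. Scaling to total counts moved the median of all genes to 0.09 and log2(FPKM + 0.1) moved it to 0.11, and the members' median was then -0.05 and -0.06, while 70 of 98 members lay below the all-gene median under each of these scalings. FPKM values given below therefore show slightly smaller falls and larger rises than the fitted fold changes.

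**Figure D1:**
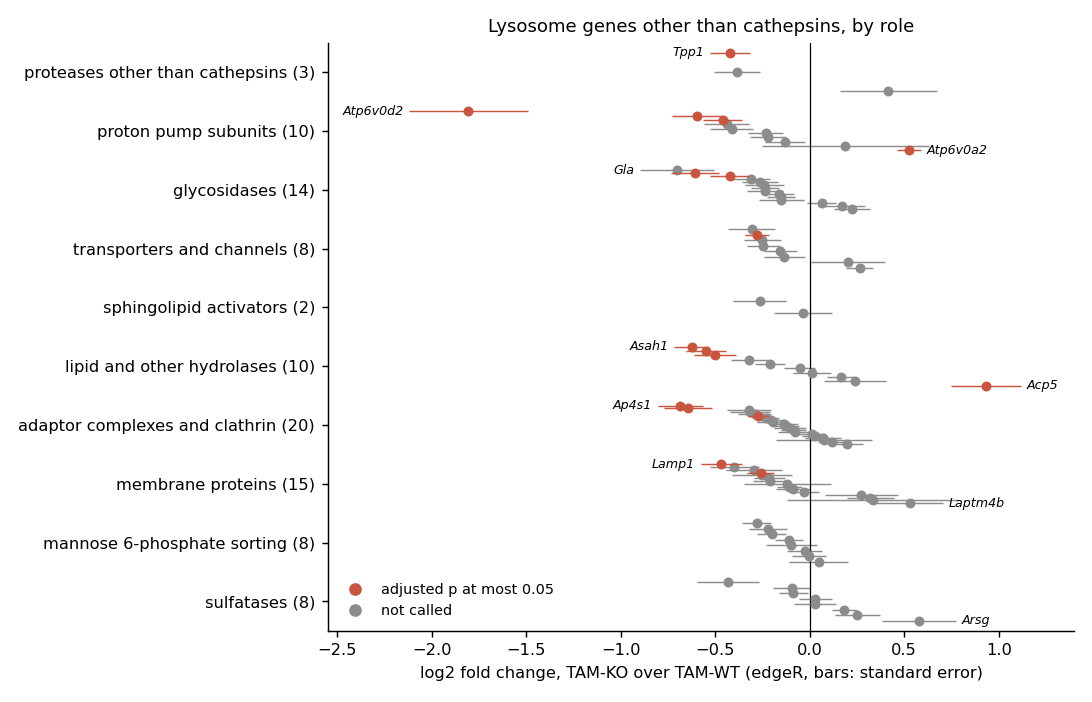
Each point is 1 of the 98 tested lysosome genes, placed on the x axis by its log2 fold change (TAM-KO over TAM-WT) with its standard error as a bar and grouped on the y axis by role, with the number tested in brackets. Coloured points are the 17 genes with an adjusted p of at most 0.05; most lie left of 0, Atp6v0d2 lies farthest left at -1.81, and Acp5 and Atp6v0a2 are the coloured points to the right.

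The count of calls depends on single libraries. It was 1 without TAM-KO replicate 2 and 1 without TAM-KO replicate 3, when 0.617% of all genes were called in each of those fits, and 3 and 5 without TAM-WT replicates 3 and 4, when 1.21% and 3.34% of all genes were called. The calls kept were Atp6v0a2 without either of those TAM-KO libraries, Acp5, Asah1 and Atp6v0a2 without TAM-WT replicate 3, and these with Ap4s1 and Atp6v0d2 without TAM-WT replicate 4. Leaving out the library with the partial table, TAM-KO replicate 1, gave 13 calls, beside 5.47% of all genes. The count rose to 36 without TAM-WT replicate 2, the TAM-WT library with the highest melanoma marker sum, when 22.2% of all genes were called. It was 22 without TAM-KO replicate 4, beside 9.07% of all genes, and 15 without TAM-WT replicate 1, beside 9.31%. The median of the members stayed between -0.20 and -0.13 over the 8 fits that each left out 1 library, and Atp6v0a2 was called in 8 of 8 of them.

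**Figure D2:**
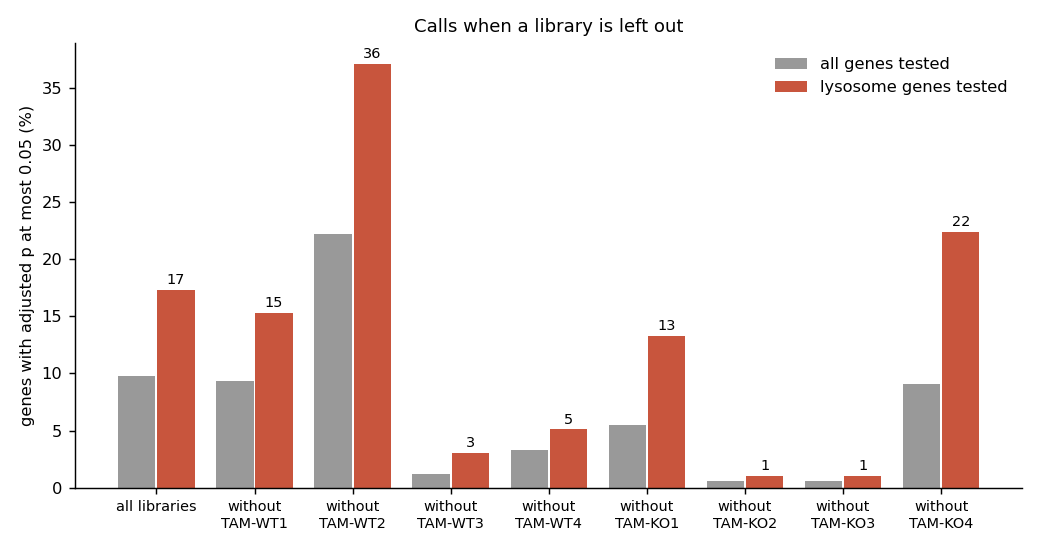
Bars give the percentage of genes with an adjusted p of at most 0.05 among all genes tested (grey) and among the lysosome genes tested (red), with all libraries and with each library left out in turn; the number of lysosome genes called stands above each red bar. It ranges from 1 without TAM-KO replicate 2 or 3 to 36 without TAM-WT replicate 2, and in most fits the share of all genes moves with it. Without TAM-KO replicate 4 the number is 22, while the share of all genes is 9.07%, beside 9.81% with all libraries.

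The proton pump held both the largest fall and a rise. Atp6v0d2 (chromosome 4, 19876838 to 19922566 on GRCm38.p6) encodes the d2 subunit of the V0 sector, an isoform of macrophages and osteoclasts. Its FPKM was 70.8, 77.2, 103 and 88.7 in TAM-WT and 34.2, 16.3, 15.2 and 38.1 in TAM-KO. Every TAM-KO library lay below every TAM-WT library, with replicates 2 and 3 lowest, and the gene was 3.5-fold lower (log2 -1.81, SE 0.31, adjusted p = 0.0178). The call was lost without TAM-WT replicate 3 or TAM-KO replicates 2 or 3, with an adjusted p of up to 0.0641. Atp6v0d1, the broadly expressed d isoform, was at 140 to 152 FPKM in TAM-WT and at 104 to 136 in TAM-KO (log2 -0.41, SE 0.11, adjusted p = 0.0548). On the FPKM scale Atp6v0d2 made up 33.5%, 33.6%, 41.9% and 36.9% of the summed d isoforms in TAM-WT and, in the TAM-KO replicates 2, 3 and 4, 12.4%, 12.7% and 21.9%.

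The 4 V0 a subunits, which anchor the pump and differ in where they reside, did not move together. Atp6v0a2 (chromosome 5, 124629052 to 124724455), known from the Golgi and endosomes, was at 17.3, 17.5, 13.9 and 16.7 FPKM in TAM-WT and at 24.4, 26.8, 24.8 and 25.4 in TAM-KO. The groups were well apart and the spread within TAM-KO was small, and the gene was 1.44-fold higher (log2 0.53, SE 0.07, adjusted p = 0.0064), the lowest adjusted p of any member. Atp6v0a1 was at 149, 154, 146 and 149 FPKM in TAM-WT and at 111, 103 and 129 in TAM-KO replicates 2 to 4, and it fell by 0.46 on the log2 scale (SE 0.10, adjusted p = 0.0348). Tcirg1, the a3 subunit of lysosomes and osteoclasts, ranged from 112 to 139 FPKM in TAM-WT and from 117 to 134 in TAM-KO, so that the groups overlapped. Atp6v0a4, the kidney isoform, was at most 0.23 FPKM in any library. Atp6v0a2 thus supplied 4.64% to 6.17% of the summed a isoforms in TAM-WT and 8.81% to 10.4% in TAM-KO replicates 2 to 4 on the FPKM scale, and Atp6v0a1 supplied 48.7% to 54.3% and 42.2% to 44.7%. These shares, like those of the d isoforms, were chosen after the values were seen and were not tested.

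Atp6v1h, the regulatory H subunit of V1, was at 69.1, 71.6, 77.9 and 83.8 FPKM in TAM-WT and at 47.6, 53.6 and 59.5 in TAM-KO replicates 2 to 4, without overlap (log2 -0.60, SE 0.13, adjusted p = 0.0338). Atp6v0c, the proteolipid of the proton-carrying ring and the most abundant pump subunit, was at 1402, 1496, 1516 and 1484 FPKM in TAM-WT and at 1106, 1136 and 1310.1 in TAM-KO. It lay lower in each of these TAM-KO libraries, with no value in replicate 1, but missed the threshold (log2 -0.44, SE 0.12, adjusted p = 0.052). Atp6v0b, another ring subunit, overlapped between the groups at 204 to 230.2 and 181 to 217 FPKM (adjusted p = 0.158). In all, 3 of the 10 pump subunits tested fell and 1 rose, beside 5.24% and 4.58% of all genes.

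**Figure D3:**
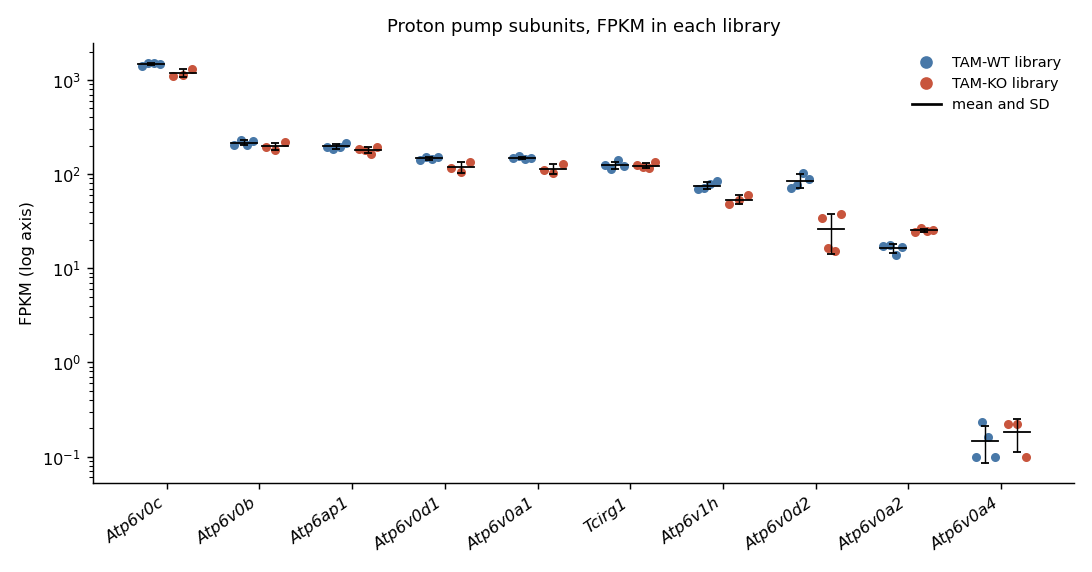
FPKM (log axis) of the 10 proton pump subunits in each library, TAM-WT in blue and TAM-KO in red, with the mean as a horizontal line and the SD as an error bar; genes without a value in TAM-KO replicate 1 have 3 red points. Atp6v0d2 drops from between 70.8 and 103 to between 15.2 and 38.1, Atp6v0a2 rises from between 13.9 and 17.5 to between 24.4 and 26.8, and Tcirg1 overlaps between the groups.

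Of the 14 glycosidases tested, which trim sugar chains, 2 fell and 0 rose in edgeR, with 9 at an unadjusted p under 0.05, and 4 fell and 0 rose in DESeq2. Of all 12412 genes tested, 5.24% fell and 4.58% rose in edgeR, and 3806 had an unadjusted p under 0.05. DESeq2 called 18.2% of all genes in either direction. Hexa, a subunit of β-hexosaminidase A and the most abundant glycosidase gene, was at 405 to 439 FPKM in TAM-WT and 342 to 427 in TAM-KO (log2 -0.24, SE 0.10, adjusted p = 0.16). Gla, α-galactosidase A, whose promoter is printed above, was at 52.2, 56.6, 70.5 and 78.0 FPKM in TAM-WT and at 36.1, 42.2 and 49.9 in TAM-KO. Its estimate was the second lowest of all members, but it varied within TAM-WT and did not pass (log2 -0.70, SE 0.20, adjusted p = 0.0586). The authors' table of differentially expressed genes, here called the series table, gives Gla at 51.4 FPKM in TAM-KO replicate 1. That is close to the lowest TAM-WT library. The series table gives that library for 6 of the 61 members otherwise without it. Those genes were listed for their difference between the groups, so its values here and below are no independent check. Gaa, the acid α-glucosidase, lay the other way, at 52.3 to 73.2 FPKM in TAM-WT and 72.9 to 77.7 in TAM-KO (log2 0.22, SE 0.09, adjusted p = 0.15).

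Of the 10 lipid and other hydrolases tested, 3 fell and 1 rose, beside 5.24% and 4.58% of all genes. The group held 3 of the 15 falls and the larger of the 2 rises, that of the phosphatase Acp5. Asah1, the acid ceramidase, was at 179, 156, 166 and 139 FPKM in TAM-WT and at 115, 113 and 106 in TAM-KO replicates 2 to 4. The TAM-KO libraries lay close together below all TAM-WT libraries (log2 -0.62, SE 0.09, adjusted p = 0.0154), and the series table gives 115 FPKM for TAM-KO replicate 1. Lipa, the lysosomal acid lipase that frees cholesterol from its esters, was at 192, 212, 205 and 195 FPKM in TAM-WT and at 145, 134 and 164 in TAM-KO (log2 -0.55, SE 0.11, adjusted p = 0.0255). Dnase2a, which digests engulfed DNA, was at 58.8, 59.5, 61.0 and 60.02 FPKM in TAM-WT and at 43.0, 40.7 and 52.4 in TAM-KO (log2 -0.50, SE 0.11, adjusted p = 0.0351). For both of these genes replicate 4 was the highest of the TAM-KO libraries with a value and still lay below TAM-WT.

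Acp5 (chromosome 9, 22126727 to 22135746), the tartrate-resistant acid phosphatase of macrophages and osteoclasts, was at 18.7, 18.9, 25.3 and 24.6 FPKM in TAM-WT and at 56.3, 40.3 and 38.9 in TAM-KO replicates 2 to 4. It was 1.91-fold higher in TAM-KO with no overlap (log2 0.93, SE 0.18, adjusted p = 0.0269), the largest rise of any member, and the series table gives 40.6 FPKM for TAM-KO replicate 1. The call was lost without TAM-KO replicate 2 or 3, with an adjusted p of up to 0.0939. Acp5 and Atp6v0d2, both known from osteoclasts, moved in opposite directions. Smpd1, the acid sphingomyelinase, was at 29.5, 51.1, 28.1 and 27.7 FPKM in TAM-WT, where replicate 2 stood above the others, and at 39.7 to 48.2 in TAM-KO (adjusted p = 0.358).

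Among 3 proteases other than cathepsins, Tpp1, a tripeptidyl peptidase, was at 163, 178, 169 and 162 FPKM in TAM-WT and at 131, 129.7 and 159.9 in TAM-KO replicates 2 to 4. Replicate 4 lay just under the lowest TAM-WT library, and Tpp1 passed narrowly (log2 -0.42, SE 0.10, adjusted p = 0.0441). Lgmn, the asparaginyl endopeptidase that matures several cathepsins, was the second most abundant member, at 1797, 1482, 1778 and 1865 FPKM in TAM-WT and 1470.2, 1298, 1355 and 1593 in TAM-KO. TAM-WT replicate 2 fell among the TAM-KO libraries, and Lgmn did not pass (log2 -0.38, SE 0.12, adjusted p = 0.0691). Napsa, an aspartic protease, was at 9.46 to 22.2 FPKM in TAM-WT and 21.3 to 25.3 in TAM-KO (log2 0.42, SE 0.26, adjusted p = 0.312).

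Psap, the precursor of the saposins that present sphingolipids to their hydrolases, was the most abundant member, at 3658, 3203, 3957 and 4002 FPKM in TAM-WT and 3354, 3317, 2807 and 3859 in TAM-KO. The groups overlapped (log2 -0.26, SE 0.14, adjusted p = 0.235). Gm2a, the activator of ganglioside breakdown, was at 72.6 to 114 FPKM in TAM-WT and at 100.1 to 103 in TAM-KO, with an estimate near 0 that was negative here (log2 -0.04) and positive when scaled to total counts (0.08) or as log2(FPKM + 1) (0.09). Psap, Lgmn, Atp6v0c and Lamp1 together carried 50.9% of the summed FPKM of the members. The median member, at 38.6 FPKM, was more abundant than the median gene with a value, at 5.64 FPKM.

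The sulfatases and their partners had no call. Of 8 tested, 0 passed in edgeR, 3 had an unadjusted p under 0.05 and 1, Arsg, was called by DESeq2, and 3 of the 8 estimates were negative, beside 49.7% of all genes. Of all 12412 genes tested, 3806 had an unadjusted p under 0.05, and DESeq2 called 18.2%. Sumf1, the enzyme that activates sulfatases, was at 33.2 to 41.3 and 36.7 to 38.6 FPKM (log2 -0.09, adjusted p = 0.478; 0.05 as log2(FPKM + 1)). Arsg, arylsulfatase G, was low, at 4.78, 5.79, 2.16 and 3.16 FPKM in TAM-WT and 6.08, 6.81, 6.37 and 5.35 in TAM-KO (log2 0.58, SE 0.20, adjusted p = 0.083). TAM-WT replicates 1 and 2 lay close to TAM-KO for that gene.

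Of the 15 membrane proteins tested, Lamp1 and Cd164 fell, beside 5.24% of all genes. Lamp1 (chromosome 8, 13159161 to 13175338), the abundant glycoprotein that lines the lysosomal membrane and whose promoter held 4 copies of CACGTG, was at 889.5, 849.7, 913 and 901 FPKM in TAM-WT and at 658, 659 and 754 in TAM-KO replicates 2 to 4. Its TAM-KO libraries lay well below TAM-WT (log2 -0.47, SE 0.11, adjusted p = 0.0385). Cd164, a small sialomucin, was at 108, 104, 99.2 and 103 FPKM in TAM-WT and at 99.6, 85.1, 94.6 and 93.7 in TAM-KO. On the FPKM scale TAM-KO replicate 1 lay just above TAM-WT replicate 3, and the call, narrow at an adjusted p of 0.0473 (log2 -0.26, SE 0.07), was kept in 1 of the 8 fits that left out a library. Lamp2, the partner of Lamp1, was at 196 to 216 FPKM in TAM-WT and 193 to 201 in TAM-KO (log2 -0.21, SE 0.09, adjusted p = 0.151). Laptm5, a lysosomal protein of blood cells, overlapped at 557 to 692 and 484 to 646 FPKM (adjusted p = 0.222). Laptm4b lay the other way, at 20.6, 28.7, 15.8 and 15.8 FPKM in TAM-WT and 34.0, 31.8 and 27.7 in TAM-KO (log2 0.53, SE 0.18, adjusted p = 0.0874). Its highest TAM-WT value was in replicate 2, the TAM-WT library with the highest melanoma marker sum. The part of melanoma RNA in its level was not tested. Entpd4 and Entpd4b are near-identical copies between which reads can be split, and their summed FPKM was 13.8 to 17.3 in TAM-WT and 16.1 to 17.1 in TAM-KO.

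Among 8 transporters and channels, Ctns, which exports cystine, was at 17.4, 17.1, 15.5 and 15.6 FPKM in TAM-WT and at 14.9, 14.6, 13.9 and 15.3 in TAM-KO. The groups did not overlap although the difference was small (log2 -0.28, SE 0.06, adjusted p = 0.0316), and the call was kept in 2 of 8 fits that left out a library. Npc1 and Npc2, which hand cholesterol out of the lysosome, overlapped between the groups. Npc1 was at 78.9 to 89.0 FPKM in TAM-WT and 66.8 to 84.4 in TAM-KO (log2 -0.31, SE 0.13, adjusted p = 0.144), and Npc2 at 158 to 208 and 174 to 196 FPKM (adjusted p = 0.427). Mcoln1, the calcium channel whose promoter window holds TCACGTGA, was at 29.8 to 33.1 FPKM in TAM-WT and 26.0 to 31.6 in TAM-KO (log2 -0.25, SE 0.09, adjusted p = 0.094). Abca2 lay the other way, at 6.43 to 7.95 FPKM in TAM-WT and 8.82 to 9.95 in TAM-KO replicates 2 to 4. It did not pass in edgeR (log2 0.26, SE 0.07, adjusted p = 0.0569). DESeq2 and scaling to total counts called it higher, beside 18.2% and 10.9% of all genes called in either direction.

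Adaptor complexes choose cargo for the route to the lysosome, and 3 of their 20 tested genes fell, beside 5.24% of all genes. Ap3s1 and Ap3m1 encode the σ and μ subunits of AP-3, which carries membrane proteins such as Lamp1 from endosomes. Ap3s1 was at 76.3, 86.7, 97.3 and 97.2 FPKM in TAM-WT and at 59.1, 63.7 and 61.9 in TAM-KO replicates 2 to 4, without overlap (log2 -0.64, SE 0.13, adjusted p = 0.0273). Ap3m1 was at 31.3, 29.8, 28.4 and 29.3 FPKM in TAM-WT and at 25.4, 27.8, 27.0 and 25.7 in TAM-KO (log2 -0.27, SE 0.05, adjusted p = 0.0236). Both lay lower in every TAM-KO library with a value, which for Ap3s1 leaves out replicate 1. The other AP-3 genes tested did not pass, and Ap3d1, its δ subunit, was at 54.5 to 56.9 FPKM in TAM-WT and 59.95 to 62.6 in TAM-KO (log2 0.03, adjusted p = 0.82). Ap4s1, the σ subunit of AP-4 at the Golgi, was at 10.9, 11.2, 9.31 and 10.6 FPKM in TAM-WT and at 6.32, 7.63 and 5.91 in TAM-KO (log2 -0.69, SE 0.12, adjusted p = 0.0205), and the series table gives 8.41 FPKM for TAM-KO replicate 1. Clta and Cltc, the light and heavy chains of clathrin, did not pass. Clta was at 381 to 456 and 352 to 402 FPKM (log2 -0.31, SE 0.11, adjusted p = 0.0874), and Cltc at 171 to 188 and 169 to 183 FPKM (adjusted p = 0.233).

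The mannose 6-phosphate route gave no call in edgeR among its 8 genes, with 2 at an unadjusted p under 0.05 and 1, Nagpa, called by DESeq2. Of all 12412 genes tested, 3806 had an unadjusted p under 0.05, and DESeq2 called 18.2%. M6pr, the cation-dependent receptor of that tag, was at 169 to 199.9 FPKM in TAM-WT and 165 to 182 in TAM-KO (log2 -0.22, SE 0.10, adjusted p = 0.172). Igf2r, the larger receptor, whose promoter is printed above, was at 23.4 to 31.1 and 24.8 to 33.2 FPKM (log2 0.05, SE 0.16, adjusted p = 0.868). Gga1, a Golgi adaptor for these receptors, was at 46.2 to 50.3 and 46.6 to 49.7 FPKM (adjusted p = 0.337). Nagpa, which uncovers the tag, was at 37.4 to 39.3 FPKM in TAM-WT and at 31.4 to 37.9 in TAM-KO and missed the threshold (log2 -0.28, SE 0.08, adjusted p = 0.0504). The median estimate of the 8 genes was -0.10, and 0.01 as log2(FPKM + 1).

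Set side by side, the falls were deeper in TAM-KO replicates 2 and 3 than in replicate 4 for most of the 15 genes. Relative to the mean of TAM-WT on the log2(CPM + 0.5) scale, the median of the 15 genes that fell was -0.06, -0.08, 0.12 and 0.03 in the TAM-WT libraries. It was -0.61, -0.60 and -0.29 in TAM-KO replicates 2 to 4, and -0.30 over the 4 of these genes with a value in TAM-KO replicate 1. Over all members tested, the medians were -0.02, -0.07, 0.06 and 0.05 in TAM-WT and -0.18, -0.21 and -0.06 in TAM-KO replicates 2 to 4, so that TAM-KO replicate 4 came closest to TAM-WT and lay near TAM-WT replicate 2. The median of all genes stayed between -0.02 and 0.01 in each library. TAM-WT replicate 2 and TAM-KO replicates 2 and 3 had the highest melanoma marker sums given above, and the part of melanoma RNA in these levels was not tested. As a share of all FPKM over the 7 whole libraries, the members made up 2.53%, 2.36%, 2.59% and 2.63% in TAM-WT and 2.26%, 2.11% and 2.50% in TAM-KO.

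**Figure D4:**
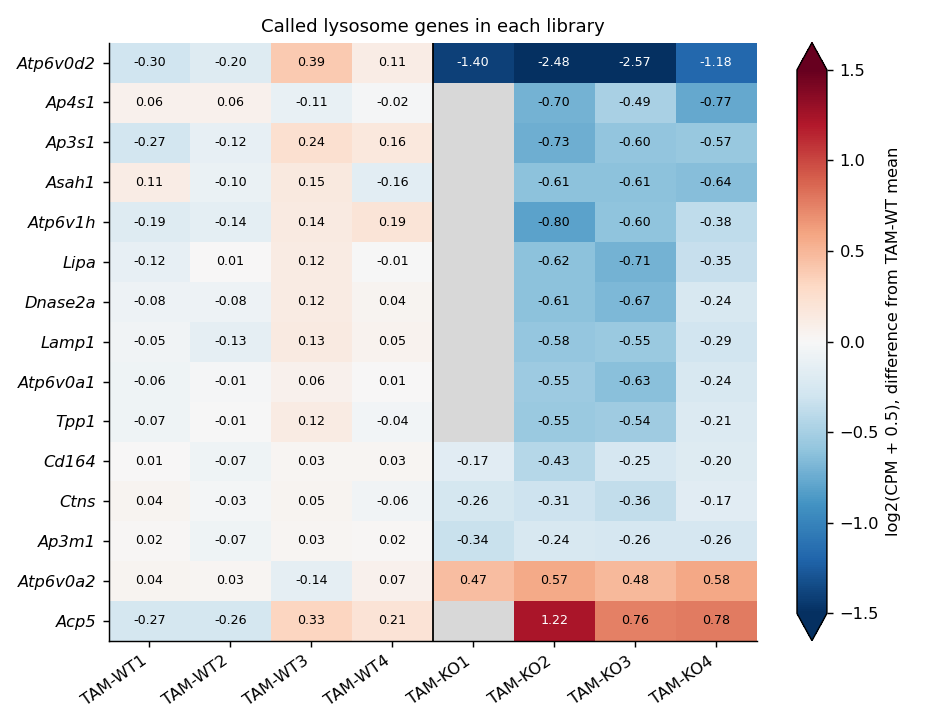
Rows are 15 of the 17 called lysosome genes and columns the 8 libraries; each cell gives log2(CPM + 0.5) minus its mean over TAM-WT, blue for lower and red for higher, with grey where TAM-KO replicate 1 has no value. The falls are deepest in TAM-KO replicates 2 and 3 for most genes and shallower in replicate 4, while Atp6v0a2 stands between 0.47 and 0.58 in all 4 TAM-KO libraries.

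Genes that work with the lysosome but lie outside the KEGG list were read from lists drawn up for this comparison. Of 8 further V1 and accessory subunits of the proton pump, 4 fell, beside 5.24% of all genes, with a median log2 fold change of -0.40. In this list 8 of 8 estimates were negative, beside 49.7% of all genes. Atp6ap2, an accessory subunit, was at 109, 113, 110.4 and 108 FPKM in TAM-WT and 93.8, 83.3, 83.8 and 89.7 in TAM-KO, a tight separation (log2 -0.44, SE 0.07, adjusted p = 0.0145). Atp6v1c1 (log2 -0.52, SE 0.11, adjusted p = 0.0238), Atp6v1e1 (log2 -0.38, SE 0.08, adjusted p = 0.0295) and Atp6v1g1 (log2 -0.37, SE 0.08, adjusted p = 0.026), which encode the C, E and G subunits of V1, fell as well. These genes and the members came from the same libraries and are not independent of each other.

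Of 16 transcription factors and nutrient-sensing genes of the lysosome surface, 5 fell, beside 5.24% of all genes, and 0 rose, beside 4.58%. The 5 were the Rag GTPases Rraga (log2 -0.54, SE 0.12, adjusted p = 0.0295) and Rragc (log2 -0.40, SE 0.09, adjusted p = 0.0304), the Ragulator subunits Lamtor1 (log2 -0.25, SE 0.06, adjusted p = 0.0428) and Lamtor3 (log2 -0.42, SE 0.09, adjusted p = 0.0295), and Fnip1 (log2 -0.41, SE 0.09, adjusted p = 0.0295), a folliculin partner. The factors that bind the CLEAR element were not called. Tfeb was at 24.7 to 27.9 FPKM in TAM-WT and 22.3 to 28.4 in TAM-KO (log2 -0.13, SE 0.09, adjusted p = 0.367). Tfe3 was at 46.7 to 53.9 and 48.3 to 54.9 FPKM (log2 -0.10, SE 0.08, adjusted p = 0.459; 0.01 as log2(FPKM + 1)). Mitf, which melanoma cells also express, was at 57.4, 73.1, 45.4 and 45.3 FPKM in TAM-WT and 79.6, 85.3 and 84.3 in TAM-KO (log2 0.48, SE 0.14, adjusted p = 0.0613), and it passed under limma on log2(FPKM + 1) and in DESeq2. Its highest TAM-WT value was in replicate 2, the TAM-WT library with the most melanoma marker RNA.

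Of 11 genes that tether and move late endosomes, 3 fell and 0 rose, beside 5.24% and 4.58% of all genes. Rab7, the GTPase of late endosomes, was at 432, 418, 461 and 436 FPKM in TAM-WT and 383, 350.2, 373 and 372 in TAM-KO (log2 -0.35, SE 0.08, adjusted p = 0.0349). Arl8b, which moves lysosomes outward (log2 -0.38, SE 0.07, adjusted p = 0.0213), and Vps33a, a tethering subunit (log2 -0.38, SE 0.08, adjusted p = 0.0237), fell too. Of 12 other lysosomal proteins, Pld3, an exonuclease of the lysosome (log2 -0.80, SE 0.17, adjusted p = 0.0269), and Ostm1 (log2 -0.26, SE 0.06, adjusted p = 0.0411) fell, beside 5.24% of all genes. Grn, the abundant precursor of granulins, overlapped at 1106 to 1380.2 and 1114 to 1457 FPKM (log2 -0.11, SE 0.14, adjusted p = 0.649; 0.00 when scaled to total counts), and Gpnmb, a glycoprotein of macrophages and melanoma cells, at 494 to 803 and 708 to 813 FPKM (log2 0.10, SE 0.14, adjusted p = 0.679; -0.02 without TAM-WT replicate 1). Of 12 autophagy genes, Atg5 (log2 -0.29, SE 0.06, adjusted p = 0.0356) and Atg12 (log2 -0.47, SE 0.13, adjusted p = 0.0462) fell and 0 rose, beside 5.24% and 4.58% of all genes; 0 of the 12 were called in both limma fits and 1 when scaled to total counts. Limma on log2(FPKM + 1) also called fewer of the further pump subunits, 2 lower, and of the other lysosomal proteins, 1 lower and 1 higher.

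Some values cannot be assigned to 1 gene with certainty. The strand setting of the libraries is not given in the sources used here, and exons of Ap3m1 overlap those of Vcl on the opposite strand by up to 2090 bases, those of Atp6v0a2 overlap the antisense gene 4930404A12Rik by up to 492 bases, and exons of Lamp1, Acp5 and Atp6v1h overlap genes on the opposite strand by 127 to 177 bases in GENCODE. Reads from such stretches cannot be told apart without strand. Of the 5 members not tested, Ap1m2, Ap3b2 and Lamp3 were at most 0.2 FPKM in any library, and Dnase2b and Psapl1 had no value.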

How the data were processed

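The authors sorted the cells, sequenced total RNA on the BGISEQ-500 platform, aligned reads with Bowtie2 and quantified genes with RSEM; the submitters' processing notes name HISAT2 2.0.4, Bowtie2 2.2.5, RSEM 1.2.12 and GRCm38.p6. The deposited expected counts are RSEM estimates per gene without normalization, and the deposited FPKM values are scaled by the authors to gene length and mapped reads. The authors' deposited table of their own comparison (log2 ratios, p-values and q-values) was not used for its tests. Its values for TAM-KO replicate 1 were used where named and in an alternative added after the data were seen. It lists genes the authors labelled as differentially expressed, so those values were selected through the same comparison.

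Samples were grouped by title. The table of TAM-KO replicate 1 lacks 5311 lines, and below the gap 50 of its 98 Lysosome labels sit on other genes, so labels were taken from the other 7 tables, which hold the same list. The rounded expected counts entered edgeR 4.0.16 under R 4.3.3, with TMM scaling, filterByExpr, glmQLFit and glmQLFTest over all genes. A gene present in all 8 tables was fitted with 8 libraries and any other with 7, and the Benjamini-Hochberg adjustment covered the 2 sets jointly. DESeq2 1.42.0 and limma 3.58.1 served as alternatives, with pseudocounts of 1 and 0.1 for log2(FPKM). The scripts were tested on simulated data. Standard errors are the absolute log2 fold change divided by the square root of F. Replicates are separate samples by title, and the study gives 4 mice a group without tying each library to a mouse, so p-values measure the spread between these samples. No replicate pair agreed within sampling noise (chi-square per degree of freedom from 6.16 to 30.0).

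The members and gene lists were chosen with earlier results of these data known. Genes are named if they are members that passed the test, the 2 most abundant members of each role, the 3 largest changes in each direction with a mean of at least 1 CPM, or listed genes that passed, with Tfeb, Tfe3, Mitf, Grn and Gpnmb. Lamp2, Gaa, Napsa, Smpd1, Nagpa, Mcoln1, Abca2, Igf2r, Ap3d1, Atp6v0d1, Tcirg1, Atp6v0a4 and the Entpd4 pair are named besides, chosen after their values were seen. Promoter windows and gene positions are RefSeq's on GRCm38.p6, and exon overlaps are from GENCODE M21. Some genes that this rule selects are not reported here, although they remain in the counts and medians.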

Additional observations from a re-analysis of the deposited data

How the results depend on the processing

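The members' median kept its sign, and stayed 0.136 to 0.197 below that of all genes, in all 18 fits made. It was -0.049 when scaled to total counts, -0.057 in limma on log2(FPKM + 1) and -0.062 in limma on log2(FPKM + 0.1), scalings that raise the median of all genes. Against 17 calls, 15 lower and 2 higher, scaling to total counts gave 14 (14.3% of members, beside 10.9% of all genes), 11 lower and 3 higher. Each limma fit gave 13 (13.3%), 11 lower and 2 higher, beside 10.7% of all genes with a pseudocount of 1 and 10.3% with 0.1. Tpp1, Cd164, Ctns and Ap3m1 were called in none of these fits. The DESeq2 Wald test gave 31 calls (31.6% of members, beside 18.2% of all genes), 26 lower and 5 higher, and the cause was not tested. An adjusted p of at most 0.01 left 1 call and one of at most 0.1 gave 33. At least 2-fold with a call was met by 2 members when scaled to total counts and in both limma fits, where Acp5 joined Atp6v0d2. DESeq2 size factors in edgeR, no filter on low counts, at least 10 counts in every library, and TAM-KO replicate 1 filled from the series table each gave 16 calls. The filled values cover 6 members that the authors listed as differing between the groups, so that fit is no independent check. Leaving out 1 library gave 1 to 36 calls, 0 to 28 lower, 1 to 8 higher and 0 to 2 with at least a 2-fold change; fewer samples, and 2 TAM-KO libraries for genes absent from TAM-KO replicate 1, enter such fits.

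Replicate numbers did not pair the samples. The correlation of deviations between same-numbered libraries was -0.337, 0.0167, -0.238 and 0.26, and 1 of 4 TAM-WT libraries correlated best with its own number. With the replicate block 11 members were called (11.2%, beside 8.70% of all genes, against 17.3% and 9.81% without it), 10 lower and 1 higher, of which 10 were among the 17. For genes without a value in TAM-KO replicate 1, that block leaves TAM-WT replicate 1 without a partner. This library then adds nothing to their estimates, so the change in calls is not one of pairing alone. With that block 0 of the 12 autophagy genes, 1 of the 12 other lysosomal proteins and 6 of the 9 melanoma cell markers were called, against 2, 2 and 1.

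Of the 629 values of single named genes under an alternative, 515 kept their direction and their side of the threshold, 81 fell short of it, 20 newly passed it and 13 changed sign, none of these 13 with a call. Gm2a was 0.077 when scaled to total counts, 0.0925 and 0.0935 in limma with pseudocounts of 1 and 0.1, 0.053 with the replicate block and -0.167 to 0.0315 with 1 library left out. In the same 2 limma fits Sumf1 was 0.0495 and 0.0509, and Tfe3 0.0119 and 0.0121. Grn was 0.00 when scaled to total counts, and Gpnmb was -0.0238 to 0.1869 with 1 library left out. Depth was nearly even between libraries, and 3 members with at most 5 counts in any library could not be tested.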
